A study of Mus musculus with 48 samples.

Results

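Transcripts of 8 genes of the presynaptic release machinery were followed in ribosome-associated and input RNA of mouse cortex. They are Snap25, Vamp1, Vamp2 and Stx1a, which code for SNARE proteins, Syn1 and Syn2, which code for synapsins, and Sv2a and Syp, which code for membrane proteins of the synaptic vesicle. They were chosen by symbol, through the Ensembl identifiers that GENCODE pairs with these symbols, and all 8 were found among the 48526 genes of the count table. All 8 passed the filter on low counts in every fit, with 89 to 58631 reads per gene and library.

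The cortex of 12 wild-type male C57BL/6JRj mice was used, 4 aged 3 weeks (3w), 4 aged 5 months (5m) and 4 aged 18 months (18m), with no treatment. For the middle age, 6 months stands in the labels of the samples, whereas the protocol text and the methods state 5 months, which is used here. Each mouse gave 4 libraries, so that 48 libraries fall into 12 groups of 4. Total homogenate (TH) and synaptosomes (SYN), which are resealed nerve endings enriched on a sucrose gradient, were each sequenced before a sucrose cushion (input_TH, input_SYN) and from the pellet under the cushion (SC_TH, SC_SYN), which holds RNA that sediments with ribosomes. Synaptosomes carry pieces of the postsynaptic side and of glia as well as nerve endings. The lysate of TH, unlike that of SYN as far as the methods say, was cleared by centrifugation before the cushion.

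Transmitter release begins when SNARE proteins of the vesicle and of the plasma membrane zip together and pull both membranes into contact. The synaptobrevins, coded by Vamp1 and Vamp2, sit on the vesicle, while syntaxin-1A (Stx1a) and SNAP-25 (Snap25) sit on the plasma membrane. Synapsins are phosphoproteins that tether vesicles to each other and to actin in the reserve pool. Synaptophysin (Syp) is an abundant integral protein of the synaptic vesicle and binds synaptobrevin. SV2A (Sv2a) is a vesicle glycoprotein that binds the antiepileptic drug levetiracetam. In cortex these genes are expressed by neurons.

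In GRCm38, Snap25 lies on chromosome 2 (136713453-136782428, plus strand), Vamp1 on chromosome 6 (125215551-125245964, plus), Vamp2 on chromosome 11 (69088490-69092384, plus) and Stx1a on chromosome 5 (135023482-135051100, plus). Syn1 lies on chromosome X (20860511-20921004, minus), Syn2 on chromosome 6 (115134902-115282006, plus), Sv2a on chromosome 3 (96181151-96195521, plus) and Syp on chromosome X (7638471-7653256, plus). Reads were counted over all exons of a gene and without regard to strand. Isoforms are therefore not resolved, and strand does not separate the reads of overlapping genes. Whether reads over shared exonic bases were counted for either gene was not tested. Syp shares 875 exonic bases (16.8% of its exonic length) with the antisense gene Gm14703, which was counted with 982 reads over all libraries. Syn2 shares 90 exonic bases with Timp4 and Syn1 shares 9 with Araf, both on the opposite strand. The exonic sequence of Snap25 is 41.5% GC, against 49.9% to 58.2% for the other 7 genes.

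Between 1780267 and 18590040 reads were counted per library. The median depth of SC_TH was 4448523 reads at 3w, 8643431 at 5m and 12328632 at 18m. Levels are given as CPM, read counts scaled to a common library size, after TMM scaling over all 48 libraries. Over the better-counted genes, pairs of mice of the same group had a variance 2.29 to 41.8 times that expected from counting error. Neuronal markers (6 genes, none at 0) summed to 2330 to 2847 CPM in input_TH and 5805 to 6821 CPM in input_SYN. Of these 6 genes, 4 were called higher and 1 lower in SYN in input at every age, and in SC 2, 1 and 3 were higher and 3 lower at 3w, 5m and 18m. Markers of astrocytes (6 of 6 genes) were called higher in SYN than in TH at every age, in input and in SC, with sums of 797 to 927 CPM in input_TH and 2572 to 3088 CPM in input_SYN. Microglial markers (5 or 6 of 6) were called higher as well. Of 8 oligodendrocyte markers, 5, 5 and 4 were higher in input and 8, 7 and 5 in SC at 3w, 5m and 18m, with 3 lower in input and 1 in SC at 18m. Endothelial, erythrocyte and nuclear RNA markers were called lower in SYN, with the exception of 1 nuclear RNA in SC at 18m, at 3.68 to 13.4 CPM against 110 to 188 CPM for the 4 endothelial genes in input. The part of these markers in the values of SYN against TH was not tested. The 12 libraries of a fraction came from 12 animals, and the labels do not say which library was sequenced in which of the 2 runs.

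Levels per kilobase of exon differed widely between the 8 genes. Syp ranked first in 11 of the 12 groups, with 187 ± 12.0 CPM per kb in input_TH at 3w and 1195 ± 124 in input_SYN at 3w (mean ± SD, n = 4 mice). The exception was SC_TH at 18m, where Snap25 (299.6 ± 33.4) and Syp (271 ± 26.3) overlapped, as they did at 5m in both TH fractions. Vamp1 ranked last in every group, from 6.06 ± 0.758 in input_SYN at 3w to 13.5 ± 1.33 in SC_TH at 18m, and its libraries never overlapped with those of the next gene. Sv2a ranked behind Vamp2 and Snap25 in TH, and next to Syp in SYN at all 3 ages, above Vamp2 without overlap. Snap25 and Syn1 were neighbours with overlapping libraries in input_SYN at all 3 ages. Among the SNARE genes Vamp2 and Snap25 stood above Stx1a in TH, and Syn1 stood above Syn2 per kb in every group. The annotated exonic length is 3.299 kb for Syn1 and 7.031 kb for Syn2. Without division by length, Syn1 and Syn2 were near even in input_TH, at 357 and 352 CPM at 3w. The means there were 322 and 323 CPM at 5m, and 321 and 325 CPM at 18m. These orders rest on all annotated exons of a gene, and the length of the transcripts present was not measured.

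**Figure D1:**
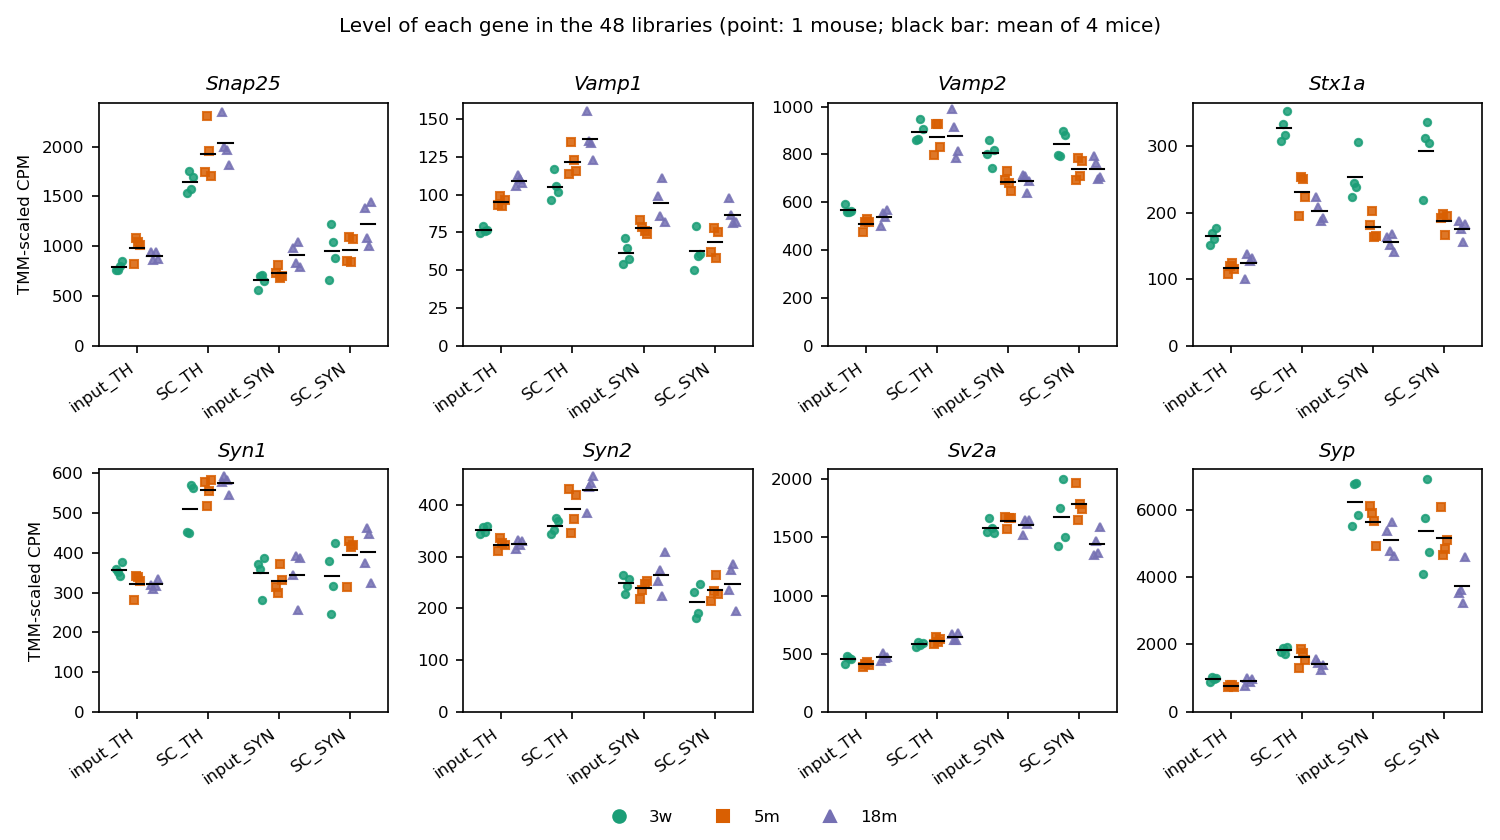
TMM-scaled CPM of the 8 genes in the 48 libraries, by fraction on the x axis, with 1 point for each mouse, colour and symbol for age, and a black bar for the mean of 4 mice. The Syp and Sv2a points of both SYN fractions lie above all TH points, whereas Stx1a points at 3w lie above those at 5m within each fraction.

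The comparison of SYN with TH asks which of these transcripts are more abundant in RNA of nerve endings than in the whole cortex. In input RNA on the TMM scale, Syp and Sv2a were the genes with the largest excess in SYN. Vamp2 and Stx1a had a smaller excess on that scale, and Vamp1 and Syn2 were lower in SYN. In total 20 of 24 tests passed, 12 higher and 8 lower in SYN. At 3w and 5m this was 7 of 8 genes each, where 71% and 72.7% of all genes tested were called, and at 18m 6 of 8, where 72.3% were called. The 4 libraries of SYN and the 4 of TH did not overlap for 7, 7 and 5 of the 8 genes at 3w, 5m and 18m, against 64.4%, 67.3% and 63.1% of all genes tested. The median log2 fold change of the 8 genes was 0.24 at 3w, 0.24 at 5m and 0.22 at 18m, against -0.18, -0.18 and -0.12 over all genes tested. Scaled by library size alone, the median of all genes moved to -0.75, -0.83 and -0.69, and the split of all called genes at 5m moved from 5826 higher and 7164 lower to 3477 higher and 11090 lower.

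Syp measured 893, 1043, 971 and 994 CPM in the 4 input_TH libraries at 3w and 5525, 6766, 6782 and 5826 CPM in the matched input_SYN libraries. At 5m the values were 738 to 794 CPM in input_TH and 6097, 5889, 5668 and 4927 CPM in input_SYN. At 18m they were 777, 1002, 896 and 968 CPM in input_TH and 5372, 4785, 5629 and 4631 CPM in input_SYN. Every SYN library was far above every TH library. The log2 fold change was 2.68 ± 0.094 (SE) at 3w, 2.89 ± 0.094 at 5m and 2.49 ± 0.093 at 18m, which is 6.41, 7.39 and 5.63 times the level in TH (adjusted p 4.3e-19, 6.8e-20 and 1.1e-18, edgeR). It ranked 180 to 234 from the highest of 17860 genes tested.

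Sv2a showed the same direction at a smaller size. It measured 415, 480, 462 and 456 CPM in input_TH and 1544, 1665, 1578 and 1540 CPM in input_SYN at 3w, and 388, 408, 427 and 407 CPM against 1671, 1576, 1668 and 1667 CPM at 5m. At 18m the values were 434, 505, 465 and 468 CPM in input_TH and 1522, 1653, 1612 and 1646 CPM in input_SYN. The groups did not overlap at any age. The log2 fold change was 1.81 ± 0.066 at 3w, 2.02 ± 0.067 at 5m and 1.79 ± 0.066 at 18m (adjusted p 1.0e-18, 8.2e-20 and 1.0e-18).

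The SNARE genes divided. Vamp2, the main synaptobrevin of forebrain, measured 475 to 531 CPM in input_TH and 645 to 729 CPM in input_SYN at 5m. Its log2 fold change on the TMM scale was 0.51 ± 0.067, 0.44 ± 0.067 and 0.36 ± 0.066 at 3w, 5m and 18m, and it turned to -0.056, -0.21 and -0.21 with library size in place of TMM. Stx1a measured 108 to 124 CPM in input_TH and 163 to 203 CPM in input_SYN at 5m. Its values on the TMM scale were 0.62 ± 0.100, 0.62 ± 0.101 and 0.33 ± 0.100, and 0.062, -0.033 and -0.23 with library size. With library size, Vamp2 was called lower in SYN at 5m and 18m (adjusted p 0.0044 and 0.0046, edgeR). Stx1a was called lower at 18m with that scaling (adjusted p = 0.045). Both genes lay above the median of all genes at every age under both scalings. At 18m the call of Stx1a was also lost with DESeq2 (adjusted p = 0.056), with at least 10 counts in every library (0.74) and without mouse 195 (0.070), and that of Vamp2 with at least 10 counts in every library (0.34).

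Vamp1, the synaptobrevin best known from fast-firing neurons and motor nerve endings, was lower in SYN under both scalings, by log2 values of -0.31 ± 0.092, -0.28 ± 0.089 and -0.22 ± 0.085 (adjusted p 0.0046, 0.0057 and 0.024). At 18m the groups overlapped, with 105, 113, 111 and 108 CPM in input_TH and 99.3, 85.6, 111 and 81.7 CPM in input_SYN. The call at 18m was lost without mouse 196 (adjusted p = 0.17) or mouse 198 (0.14) and with all 48 libraries in one fit (0.057). Snap25 had log2 values of -0.27 ± 0.095 at 3w and -0.43 ± 0.095 at 5m, both called, and 0.02 ± 0.094 at 18m. Its direction turned to 0.47 at 3w and 0.46 at 5m once trends on GC content and length were removed, and the value at 18m was 0.49 with the same trends removed (adjusted p = 1.6e-07) and -0.55 with library size. The call at 3w was lost without mouse 187 (adjusted p = 0.077) or mouse 190 (0.070) and with all 48 libraries in one fit (0.060).

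The synapsins differed from each other. Syn2 measured 343, 356, 348 and 359 CPM in input_TH and 265, 227, 243 and 257 CPM in input_SYN at 3w, and its log2 fold change was -0.50 ± 0.080, -0.43 ± 0.079 and -0.29 ± 0.078 at the 3 ages (adjusted p 3.2e-06, 2.3e-05 and 0.0018). All 12 mice had less Syn2 in input_SYN than in input_TH. Syn1 was not called at any age, with log2 values of -0.02, 0.04 and 0.12 and 95% confidence intervals within -0.24 to 0.33. With library size it was called lower in SYN at all 3 ages, at -0.59, -0.61 and -0.46.

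**Figure D2:**
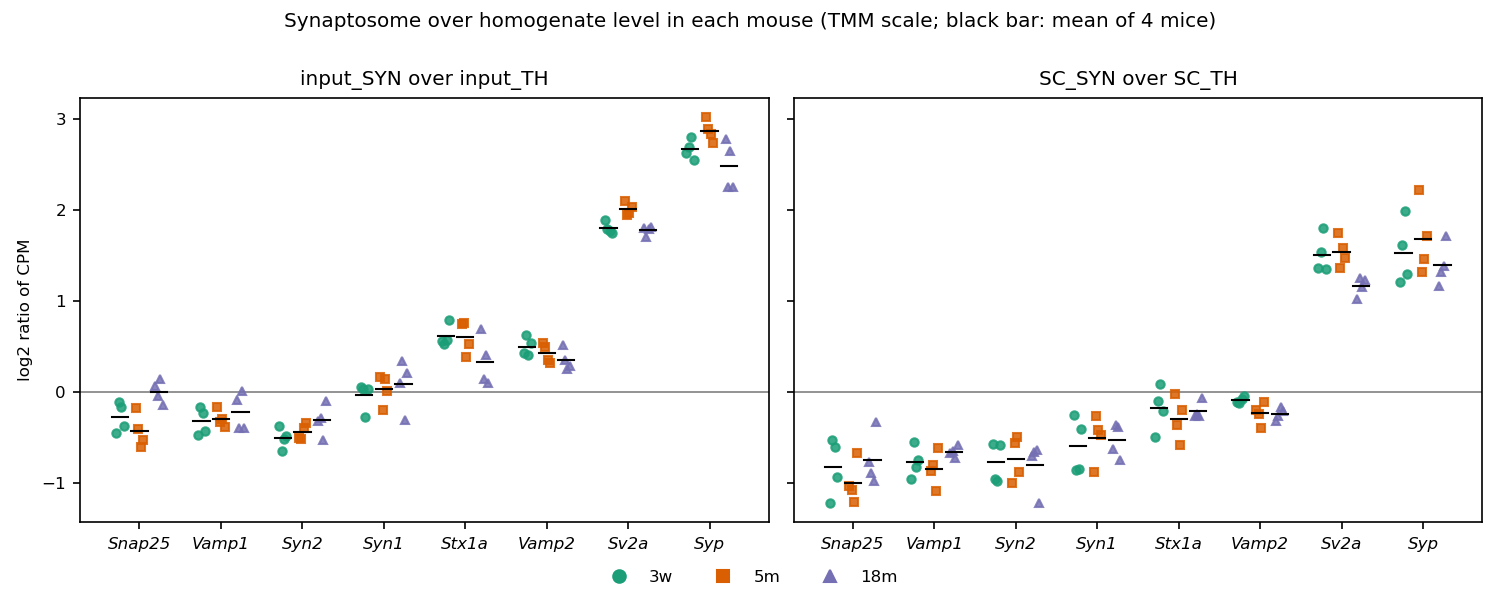
Log2 ratio of the CPM in SYN to the CPM in TH of the same mouse, TMM scale, for input RNA (left) and cushion RNA (right), with 1 point for each of 12 mice and a black bar for the mean of 4 mice of an age. Sv2a and Syp lie above 1 in all mice in both panels. Scaled by library size alone, the fitted input values of Vamp2, and of Stx1a at 5m and 18m, turned below 0.

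In ribosome-associated RNA, Sv2a and Syp were again higher in SYN, and the other 6 genes were lower or not called. SC_SYN was compared with SC_TH at each age, and 21 of 24 tests passed, 6 higher and 15 lower in SYN. At 3w this was 6 of 8 genes (63.5% of all genes tested), at 5m 8 of 8 (67.8%) and at 18m 7 of 8 (62.1%). The groups did not overlap for 6, 7 and 7 genes at the 3 ages, against 54.7%, 61.1% and 55.5% of all genes tested. The median log2 fold change of the 8 genes was -0.31, -0.37 and -0.35, against -0.04, -0.09 and -0.07 for all genes. Scaled by library size alone, no direction of the 8 genes turned in SC, the median of all genes was -0.59, -0.67 and -0.60, and the split of all called genes at 5m moved from 5333 higher and 5949 lower to 3000 higher and 9794 lower.

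Syp measured 1761, 1882, 1727 and 1926 CPM in SC_TH and 4083, 5756, 6895 and 4741 CPM in SC_SYN at 3w. At 18m it measured 1563, 1452, 1234 and 1399 CPM in SC_TH and 3521, 3616, 3224 and 4586 CPM in SC_SYN. The groups were separate at all 3 ages, and the log2 fold change was 1.60 ± 0.137, 1.71 ± 0.137 and 1.44 ± 0.136 (adjusted p 2.2e-10, 7.9e-11 and 2.5e-09). Sv2a measured 557 to 678 CPM over the 12 SC_TH libraries and 1353 to 2007 CPM over the 12 SC_SYN libraries. Its log2 fold change was 1.57 ± 0.090 at 3w, 1.57 ± 0.090 at 5m and 1.2 ± 0.089 at 18m. In each of the 12 mice both genes were at least 2.03 times as abundant in SC_SYN as in SC_TH.

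Snap25 was called lower in SC_SYN than in SC_TH at each age. At 5m it measured 1748, 2305, 1953 and 1709 CPM in SC_TH and 855, 1088, 844 and 1073 CPM in SC_SYN, with no overlap. Its log2 fold change was -0.74 ± 0.147, -0.97 ± 0.148 and -0.69 ± 0.147 at the 3 ages (adjusted p 0.0001, 2.8e-06 and 0.00025). With trends on GC content and length removed, the values shrank to -0.04, -0.34 and -0.44 and the call at 3w was lost (adjusted p = 0.72), whereas those of Vamp1 were -0.70, -0.86 and -0.76. Vamp1 was lower in SC_SYN by -0.71 ± 0.121, -0.81 ± 0.118 and -0.63 ± 0.117, and no library of SC_SYN reached the level of an SC_TH library of the same age.

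Vamp2 and Stx1a were close to even in SC. Vamp2 measured 798, 929, 930 and 833 CPM in SC_TH and 694, 785, 708 and 774 CPM in SC_SYN at 5m, and its log2 fold change was -0.04 ± 0.086, -0.21 ± 0.086 and -0.21 ± 0.086. The calls at 5m and 18m were narrow (adjusted p 0.034 and 0.040). The first was lost without any 1 of the mice 191, 192, 193 and 194, with an adjusted p of up to 0.21. The second was lost without any 1 of the mice 189, 194, 195, 196, 197 and 198, with an adjusted p of up to 0.13. Stx1a was called only at 5m (-0.27 ± 0.109, adjusted p = 0.032), and the call was lost without mouse 192 (0.076), 193 (0.25) or 194 (0.064).

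Both synapsins were lower in SC_SYN at every age. Syn2 had log2 values of -0.70 ± 0.119, -0.72 ± 0.118 and -0.76 ± 0.118, and Syn1 of -0.52 ± 0.139, -0.48 ± 0.138 and -0.49 ± 0.138. At 18m Syn2 measured 384, 435, 443 and 455 CPM in SC_TH and 235, 274, 285 and 195 CPM in SC_SYN. Syn1 measured 579, 594, 584 and 546 CPM in SC_TH and 376, 461, 448 and 324 CPM in SC_SYN at that age. The groups did not overlap for either gene.

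Differences between 2 of the genes within a mouse do not depend on the scaling between libraries, but those against Snap25 depend on the correction for GC content and length. Against Snap25, the log2 ratio of SYN to TH was higher for Syp by 2.30 to 3.45 in input and by 1.94 to 3.26 in SC over the 12 mice, and for Sv2a by 1.65 to 2.57 in input and 1.56 to 2.79 in SC. It was higher for Vamp2 and Stx1a than for Snap25 in all 12 mice, by medians of 0.73 and 0.83 in input and 0.72 and 0.67 in SC. It was near that of Snap25 for Vamp1 and Syn2, with medians of -0.05 and -0.17 in input and 0.14 and 0.14 in SC and mice on both sides of 0. With trends on GC content and length removed, the fitted input values of Snap25 (0.47, 0.46 and 0.49 at 3w, 5m and 18m) lay above those of Vamp2 (0.40, 0.21 and 0.34), Vamp1 (-0.40, -0.35 and -0.41) and Syn2 (-0.61, -0.55 and -0.44) at every age, and on both sides of those of Stx1a (0.55, 0.39 and 0.40). Those of Syp and Sv2a stayed above Snap25, at 2.39 or more and 1.69 or more.

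The comparison of SC with input asks how the level of a transcript in the ribosome pellet relates to its level before the cushion. In TH all genes except Syn2 at 3w were called higher in SC than in input, and in SYN 2 tests passed. In total 25 of 48 tests passed. In TH 7 of 8 genes were called higher at 3w (all genes called, either direction 52.8%, higher 26.1%) and 8 of 8 at 5m (62.1%, higher 29.9%) and at 18m (64%, higher 31.3%). The median log2 fold change of the 8 genes was 0.60, 0.79 and 0.68, against -0.05, -0.05 and -0.01 over all genes. No direction turned with library size.

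Snap25 measured 763, 755, 801 and 847 CPM in input_TH and 1537, 1757, 1578 and 1698 CPM in SC_TH at 3w. Its log2 fold change was 1.07 ± 0.090, 0.97 ± 0.090 and 1.19 ± 0.090 at 3w, 5m and 18m (adjusted p 1.5e-10, 6.2e-10 and 1.1e-11). Stx1a measured 151, 170, 160 and 177 CPM in input_TH and 308, 333, 317 and 353 CPM in SC_TH at 3w, a log2 fold change of 1.01 ± 0.089, followed by 0.99 ± 0.089 at 5m and 0.72 ± 0.088 at 18m. Both genes had separate groups at all 3 ages. The values of Vamp2 were 0.67 ± 0.070, 0.78 ± 0.070 and 0.71 ± 0.069, whereas those of Vamp1 were lower at 0.47 ± 0.069, 0.35 ± 0.067 and 0.34 ± 0.066.

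Among the vesicle genes, Syp was higher in SC_TH by 0.92 ± 0.089, 1.07 ± 0.090 and 0.65 ± 0.089, and Sv2a by 0.37 ± 0.059, 0.59 ± 0.059 and 0.47 ± 0.059. Syn1 was higher by 0.53 ± 0.078, 0.80 ± 0.078 and 0.86 ± 0.078. Syn2 had values of 0.05 ± 0.066 at 3w (343, 356, 348 and 359 CPM in input_TH, 344, 352, 374 and 368 CPM in SC_TH), 0.28 ± 0.066 at 5m and 0.41 ± 0.066 at 18m. The groups overlapped for Syn2 at 3w and for no other gene or age, whereas 47.9%, 51.8% and 57.9% of all genes tested did not overlap at 3w, 5m and 18m. Nuclear RNA markers (6 genes, none at 0) moved the other way, from 16730 to 19584 CPM in input_TH to 5386 to 13918 CPM in SC_TH, and within SC_TH from 10519 to 13918 CPM at 3w to 5386 to 6428 CPM at 18m. Their part in the values of SC over input was not tested.

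In SYN, 2 of 24 tests passed, with Snap25 higher in SC at 3w and Syp lower in SC at 18m. This was 1 of 8 genes at 3w (18.5% of all genes tested), 0 at 5m (20% of all genes, with 1 gene at an unadjusted p under 0.05 and 0 with DESeq2) and 1 at 18m (12.6%). Snap25 measured 560, 699, 712 and 652 CPM in input_SYN and 659, 1220, 1038 and 885 CPM in SC_SYN at 3w, so the groups overlapped, and its log2 fold change was 0.51 ± 0.159 (adjusted p = 0.027). At 5m and 18m its values were 0.37 ± 0.159 and 0.43 ± 0.159 (adjusted p 0.10 and 0.079), and these passed in 4 and 6 of the alternatives, among them no filter on low counts (adjusted p 0.029 and 0.036) and GC and length trends removed (0.00011 and 0.00057). The call at 3w was lost without mouse 188 (adjusted p = 0.17), 189 (0.088) or 190 (0.069).

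Syp measured 5372, 4785, 5629 and 4631 CPM in input_SYN and 3521, 3616, 3224 and 4586 CPM in SC_SYN at 18m, with a fitted log2 difference of -0.45 ± 0.141 (adjusted p = 0.034) with no overlap of the groups. The call was lost without mouse 195 (adjusted p = 0.15), 196 (0.097) or 197 (0.24). At 3w and 5m the values were -0.24 ± 0.141 and -0.16 ± 0.141. The groups did not overlap for 0, 1 and 1 of the 8 genes at 3w, 5m and 18m, against 19.5%, 26.5% and 15.9% of all genes tested. For the other 6 genes the log2 values in SYN lay between -0.24 and 0.23. Whether SC over input differed between TH and SYN was not tested.

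**Figure D3:**
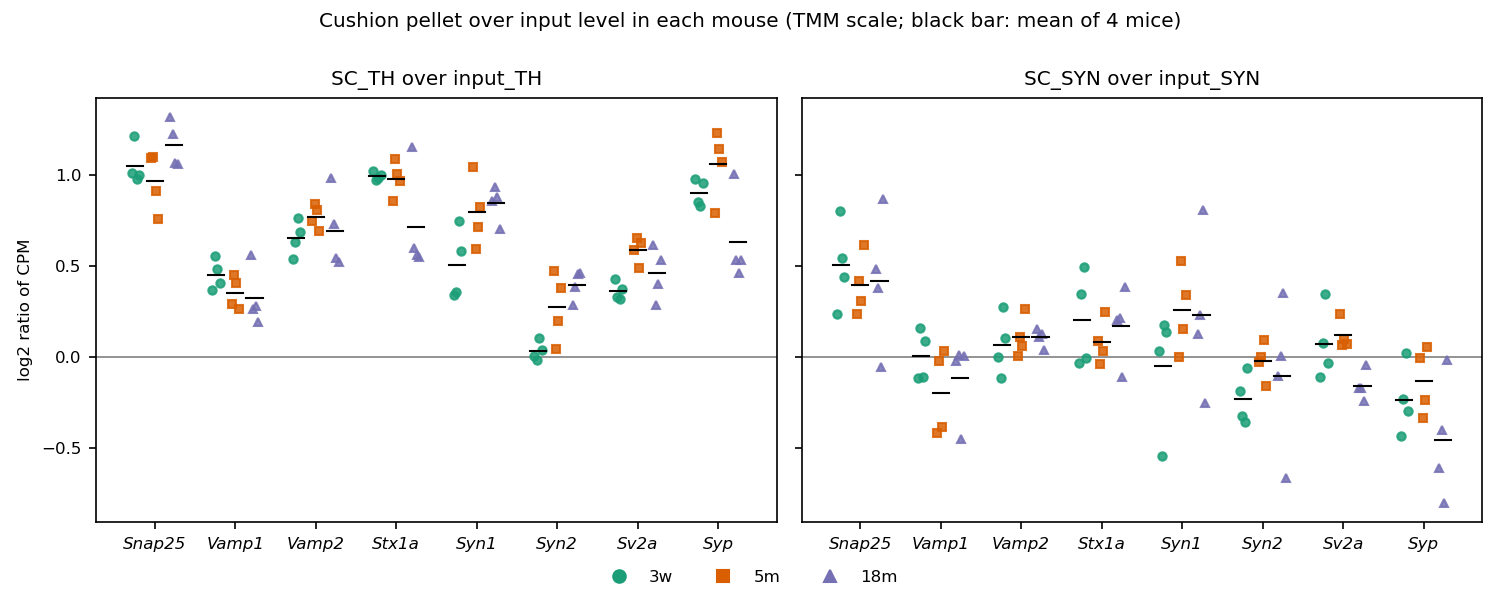
Log2 ratio of the CPM in the cushion pellet to the CPM in the input of the same mouse, TMM scale, for TH (left) and SYN (right), with 1 point for each of 12 mice and a black bar for the mean of 4 mice of an age. In TH all points but 1 of Syn2 lie above 0; in SYN the points of most genes lie on both sides of 0.

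The comparison of 5m with 3w spans the end of postnatal synapse formation. Stx1a fell in all 4 fractions, and in the other genes calls were made in input_TH alone, where Snap25 and Vamp1 rose and Vamp2 and Syp fell. Of 32 tests 8 passed, 5 of 8 genes in input_TH (11.8% of all genes tested), and 1 of 8 each in SC_TH (18%), input_SYN (3.22%) and SC_SYN (8.05%). In bulk RNA, fewer cells of a type and less RNA per cell cannot be told apart.

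Stx1a measured 151, 170, 160 and 177 CPM in input_TH at 3w and 108, 120, 124 and 115 CPM at 5m. In SC_TH it measured 308, 333, 317 and 353 CPM at 3w and 195, 254, 250 and 224 CPM at 5m. In input_SYN the values were 224, 245, 239 and 306 CPM at 3w and 181, 203, 163 and 165 CPM at 5m. In SC_SYN they were 218, 312, 337 and 305 CPM at 3w and 193, 198, 167 and 195 CPM at 5m. In each fraction every mouse at 3w was above every mouse at 5m, and 18%, 17.9%, 12% and 18.1% of all genes tested did not overlap between these ages in the 4 fractions. The log2 fold change was -0.50 ± 0.080 in input_TH, -0.50 ± 0.085 in SC_TH, -0.54 ± 0.127 in input_SYN and -0.68 ± 0.132 in SC_SYN (adjusted p 0.00051, 0.00093, 0.025 and 0.0072). The 4 fractions come from the same 12 mice and are not independent. In input_SYN the call was lost without any 1 of the mice 188, 190, 191, 193 and 194 (adjusted p 0.054 to 0.092), with log2 values of -0.42 to -0.57. All 8 oligodendrocyte markers also fell in each of the 4 fractions. In input_TH their sums were 5286 to 6557 CPM at 3w and 2093 to 2370 CPM at 5m. Of 6 neuronal markers, 2 were called lower in input_TH, 2 higher in SC_TH, and 1 lower each in input_SYN and SC_SYN. Neuronal sums were 2651 to 2802 CPM at 3w and 2330 to 2651 CPM at 5m in input_TH. In input_SYN they were 6627 to 6821 CPM and 6009 to 6365 CPM. The part of these markers in the fall of Stx1a was not tested.

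In input_TH Vamp1 measured 74.8, 79.5, 75.8 and 76.7 CPM at 3w and 93.3, 99.0, 92.8 and 96.5 CPM at 5m, with a fitted log2 difference of 0.31 ± 0.045 (adjusted p = 0.00023). Snap25 measured 763, 755, 801 and 847 CPM at 3w and 819, 1077, 1037 and 1011 CPM at 5m, with a fitted log2 difference of 0.31 ± 0.071 (adjusted p = 0.0080), and the mouse at 819 CPM lay within the 3w range. Syp fell by 0.35 ± 0.069 on the log2 scale (adjusted p = 0.0030), from 893 to 1043 CPM down to 738 to 794 CPM. Vamp2 fell by 0.16 ± 0.051 (adjusted p = 0.048), and this call was lost in 17 of the alternatives, among them no filter on low counts (adjusted p = 0.093) and any 1 of 10 mice left out. Syn1, Syn2 and Sv2a had log2 values of -0.15, -0.13 and -0.16, with adjusted p between 0.070 and 0.11. With all 48 libraries in one fit the calls of Snap25, Vamp1, Vamp2 and Syp were lost (adjusted p 0.19, 0.068, 0.30 and 0.10).

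In the other fractions Vamp1 had values of 0.21 in SC_TH, 0.30 in input_SYN and 0.09 in SC_SYN, and Vamp2 of -0.04, -0.27 and -0.23, none of them called. Vamp2 did not overlap between 3w and 5m in input_SYN (741 to 861 against 645 to 729 CPM), with an adjusted p of 0.10, and without a call it is reported as a value. Over all genes tested there, 12% did not overlap between these ages. Syp had values of -0.17 in SC_TH, -0.17 in input_SYN and -0.09 in SC_SYN.

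**Figure D4:**
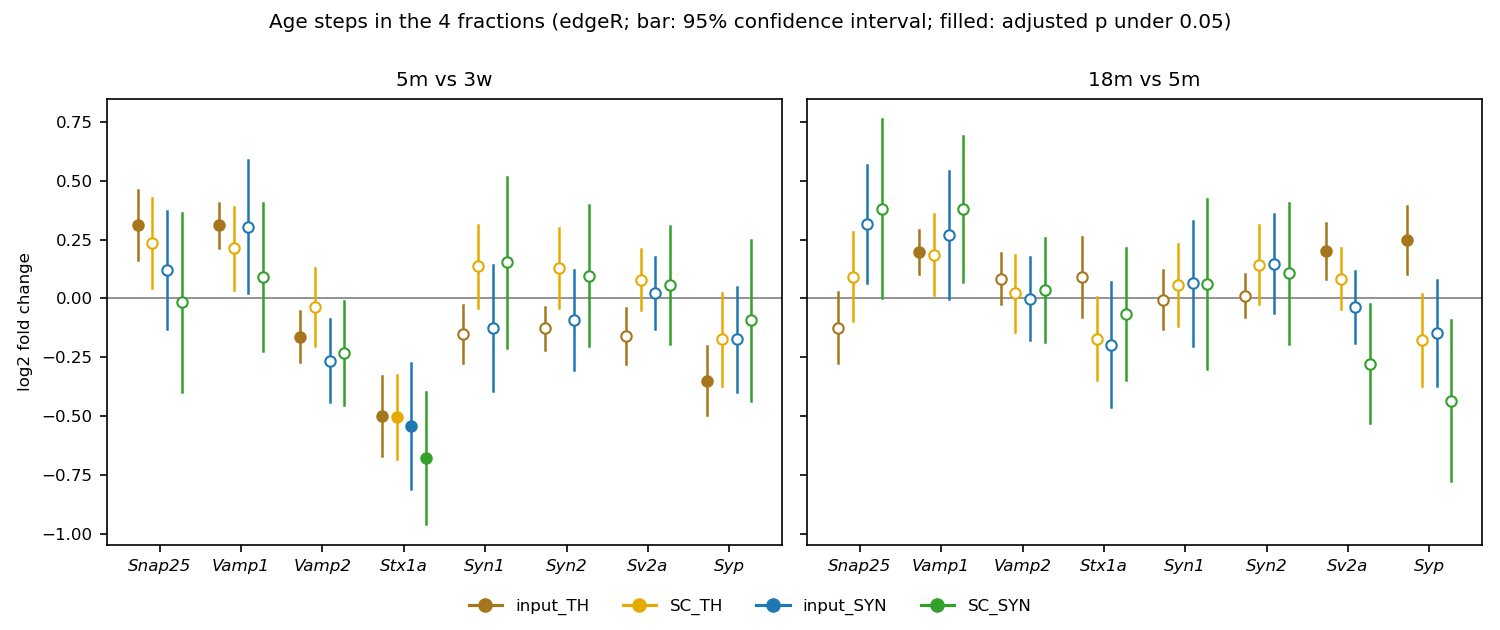
Log2 fold change of each gene from 3w to 5m (left) and from 5m to 18m (right) in the 4 fractions, with 95% confidence intervals from edgeR, filled where the adjusted p was under 0.05. In the left panel the 4 values of Stx1a lie between -0.50 and -0.68 and are all filled; in the right panel filled points are those of Vamp1, Sv2a and Syp in input_TH.

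The comparison of 18m with 5m is the aging step of the study. Changes were called in input_TH for Vamp1, Sv2a and Syp, all of them increases, and for none of the 8 genes in the other fractions. This was 3 of 8 genes in input_TH, where 15.5% of all genes were called and 8.18% called higher, and 0 of 8 in SC_TH (2.17%), input_SYN (0.139%) and SC_SYN (0.014%). At an unadjusted p under 0.05 there were 1, 1 and 4 genes in these 3 fractions, and with DESeq2 no gene passed there. The ages did not overlap for 2, 0, 0 and 3 of the 8 genes in input_TH, SC_TH, input_SYN and SC_SYN, against 18.1%, 9.87%, 6.17% and 11.6% of all genes tested.

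In input_TH Vamp1 measured 93.3, 99.0, 92.8 and 96.5 CPM at 5m and 105, 113, 111 and 108 CPM at 18m. The groups were separate, and the log2 fold change was 0.20 ± 0.045 (adjusted p = 0.0093). Syp measured 738 to 794 CPM at 5m and 777, 1002, 896 and 968 CPM at 18m, with a fitted log2 difference of 0.25 ± 0.069 (adjusted p = 0.024) with 1 old mouse within the adult range. Sv2a measured 388, 408, 427 and 407 CPM at 5m and 434, 505, 465 and 468 CPM at 18m, with a fitted log2 difference of 0.20 ± 0.056 (adjusted p = 0.024). The call of Syp was lost without mouse 194, 196 or 198 and that of Sv2a without mouse 192, 194, 196 or 198 (adjusted p 0.055 to 0.090), and all 3 were lost with all 48 libraries in one fit (adjusted p 0.18 to 0.33). With GC and length trends removed the calls of Sv2a (adjusted p = 0.18) and Syp (0.064) were lost. Neuronal markers moved in the same direction in input_TH, where 4 of 6 rose, from sums of 2330 to 2651 CPM at 5m to 2643 to 2847 CPM at 18m, and their part in the result was not tested.

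In SC_SYN Syp and Sv2a had the opposite sign, without a call. Syp measured 6068, 4661, 4817 and 5109 CPM at 5m and 3521, 3616, 3224 and 4586 CPM at 18m, a log2 value of -0.43 ± 0.161 with separate groups (adjusted p = 0.22). Sv2a measured 1970, 1652, 1788 and 1748 CPM at 5m and 1353, 1466, 1365 and 1594 CPM at 18m, a log2 value of -0.28 ± 0.118 (adjusted p = 0.25). Vamp1 had 0.38 ± 0.145 (adjusted p = 0.23), from 58.0 to 77.6 CPM up to 81.3 to 97.8 CPM. These are the 3 genes whose ages did not overlap in this fraction. When all 48 libraries shared one fit the 3 values passed the threshold, at -0.47 for Syp (adjusted p = 0.011), -0.31 for Sv2a (0.0091) and 0.34 for Vamp1 (0.033). What moved the calls was not tested.

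Whether an age step differed between SYN and TH was tested as an interaction. None of 32 tests passed in the main edgeR fits, with 5 at an unadjusted p under 0.05. In SC 0 of 8 genes were called at either step, where 0.0301% and 0% of all genes were called, and in input 0 of 8, where 0.0224% and 2.42% were called. The smallest adjusted p was that of Snap25 in input from 5m to 18m (0.070), whose log2 change was higher in SYN than in TH by 0.44 ± 0.134. It measured 819, 1077, 1037 and 1011 CPM at 5m and 943, 855, 940 and 871 CPM at 18m in input_TH, and 725, 813, 683 and 699 CPM at 5m and 985, 829, 1037 and 790 CPM at 18m in input_SYN. The value of Snap25 passed the threshold in 6 of the alternatives. Among them were the mouse as a block (0.43, adjusted p = 0.034), no filter on low counts (0.47, 0.033) and DESeq2 (0.46, 0.037). With trends on GC content and length removed, however, the log2 value of SYN over TH was 0.46 at 5m and 0.49 at 18m. Syp had -0.39 ± 0.124 (adjusted p = 0.084) and Sv2a -0.23 ± 0.091 (0.165) at the same step. Sv2a passed with DESeq2 (-0.23, adjusted p = 0.025), and Syp passed without mouse 195 (-0.49, adjusted p = 0.049, edgeR).

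Whether SC over input changed with age was tested in the same way. None of 32 tests passed in the main edgeR fits, with 5 at an unadjusted p under 0.05. In TH 0 of 8 genes were called at either step, where 2.35% and 1.78% of all genes were called, and in SYN 0 of 8, where 0% and 0% were called. The smallest adjusted p was that of Syp in TH from 5m to 18m (0.069), with a change of -0.43 ± 0.125 in log2 of SC over input. This value passed in 5 of the alternatives. Among them were DESeq2 (-0.45, adjusted p = 0.028), no filter on low counts (-0.43, 0.018) and mouse 191 left out (-0.53, 0.0059). Stx1a passed at that step without mouse 195 (-0.40, adjusted p = 0.044). Syn1 and Syn2 had changes of 0.27 ± 0.110 and 0.23 ± 0.093 in TH from 3w to 5m (adjusted p 0.16 and 0.15). Syn1 passed without mouse 189 (adjusted p = 0.037) or 192 (0.046), and Syn2 without mouse 192 (0.027). In SYN all 16 values had an adjusted p that rounds to 1, and the 95% confidence intervals reached from -0.71 to 0.73.

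A wider list of 46 genes, with the 8 genes left out, held 17 further SNAREs, 11 partners of SNAREs and 18 other vesicle proteins, and all 46 were tested in every comparison. The difference between the vesicle proteins and the SNAREs was not tested. In input_SYN against input_TH at 5m, 13 of 18 vesicle proteins were higher and 1 lower (median log2 1.08), whereas 3 of 17 SNAREs were higher and 10 lower (median -0.28), and 3 of 11 partners were higher and 6 lower (median -0.54). In SC_SYN against SC_TH at 5m the counts were 11 higher and 5 lower for vesicle proteins (median 1.06), 1 and 10 for SNAREs (median -0.29) and 2 and 8 for partners (median -0.71). Over all genes at 5m, 5826 were called higher and 7164 lower of 17860 in input (median -0.18), and 5333 and 5949 of 16630 in SC (median -0.09). In input at 18m, 13 of 18 vesicle proteins were higher and 2 lower (median 1.09). There 4 of 17 SNAREs were higher and 7 lower (median 0.04), and 3 of 11 partners were higher and 4 lower (median 0.01). The median over all genes was -0.12. From 5m to 18m, the age change in input SYN against TH was called higher for 3 of 46 genes and lower for 0. Of all genes tested, 2.42% were called there.

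Named by size alone, Syngr1, which codes for synaptogyrin-1, a vesicle protein related to synaptophysin, had a log2 fold change of 2.03 ± 0.077 in input_SYN over input_TH at 5m, and Scamp5, a secretory carrier membrane protein, 1.98 ± 0.064. Stx3, a syntaxin of other exocytic routes, had -2.60 ± 0.251, and Syn3, the third synapsin, -1.31 ± 0.145. Stx3 was at 19.2 to 21.9 CPM in input_TH and 0.920 to 5.38 CPM in input_SYN at that age. In SC_TH against input_TH at 5m, 7 of 17 SNAREs, 8 of 11 partners and 13 of 18 vesicle proteins were higher and 4, 0 and 1 lower (29.9% of all genes called higher), among the higher ones the complexin gene Cplx3 with 1.28 ± 0.185.

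The wider list was also compared between ages. From 3w to 5m 1 of 46 genes rose and 5 fell in input_TH (11.8% of all genes called), 6 rose and 5 fell in SC_TH (18%), 0 rose and 2 fell in input_SYN (3.22%), and 0 rose and 4 fell in SC_SYN (8.05%). Vamp3, a synaptobrevin widely expressed outside neurons, fell in SC_TH, input_SYN and SC_SYN by 0.69 ± 0.176, 0.85 ± 0.204 and 0.75 ± 0.218 on the log2 scale. From 5m to 18m 8 of 46 genes rose and 5 fell in input_TH (15.5% of all genes called), with Snap23 lowest at -0.55 ± 0.101, and none was called in the other 3 fractions.

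Across the 48 libraries, pairs of the 8 genes ranged from closely alike to opposed in their levels. The parts of fraction and age in this were not tested. The Pearson correlation of log2 CPM was 0.98 between Sv2a and Syp and 0.86 between Vamp2 and Stx1a, and -0.81 between Syn2 and Sv2a. Among 13714 genes, the pair most like Syp were Acvr1b (r = 0.995) and Paqr4 (0.992), and the pair most like Sv2a were Nell2 (0.993) and Spock2 (0.993). Syn1 was most like Rab3a (0.966), which codes for a vesicle GTPase, and Syn2 most like Camk2b (0.958). Snap25 was most like Psip1 (0.958), Vamp2 most like Basp1 (0.953), Vamp1 most like Nos1ap (0.915) and Stx1a most like Sept8 (0.911). The libraries share mice, fractions and TMM scaling, so these values are descriptions over 12 groups and not over 48 independent samples.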

How the data were processed

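RNA of 48 libraries was prepared with strand-specific, rRNA-depleted kits carrying UMI adaptors. Per the methods and the submitters' processing notes, reads were converted with bcl2fastq 2.20.0.422, aligned with TopHat2 2.1 to GRCm38 and assigned to genes with featureCounts without strand. Use of the UMIs is not given in the sources used here. The authors deposited raw read counts per gene, without normalization, and all columns were used. Symbols and exons came from GENCODE M21 for GRCm38, which holds 48144 of 48526 identifiers; the rest carry 0.0596% of the counts.

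After TMM and filterByExpr, these counts went into the quasi-likelihood test of edgeR 4.0.16 (glmQLFit, glmQLFTest, R 4.3.3). P-values were adjusted by Benjamini-Hochberg over all genes tested, and 0.05 was the threshold. For age, the 12 libraries of a fraction made 1 fit, and 24 libraries of paired fractions for SYN against TH, SC against input and the interactions. CPM are TMM-scaled; correlations use a prior count of 2. SE is the log2 fold change divided by the root of F.

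The 8 genes, the wider lists and the markers were chosen with earlier results of these data known. Each of the 8 genes is named; of the wider list, the 2 largest called changes in each direction of a comparison may be named, and for likeness the 2 protein-coding genes with the highest correlation.

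The 4 libraries of a mouse share its number because they come from 1 animal. Their deviations from group means correlated between -0.37 and 0.36 (medians of fraction pairs -0.01 to 0.11). Alternatives were DESeq2 1.42.0, library size, median-ratio size factors, no count filter, at least 10 counts in every library, no mitochondrially encoded genes, loess trends on GC content and length removed (span 0.5), the mouse as a block (also limma 3.58.1 duplicateCorrelation), other sets of libraries in the fit, and each mouse left out. The code was tested on simulated counts. Whether libraries of a group differ in dissection batch is not given in the sources used here. Some genes of the wider list are not reported here by name, and neither are ratios that involve them.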

Additional observations from a re-analysis of the deposited data

Results flagged for a closer look

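In 4 of 96 groups of 4 mice, 1 mouse lay far from the others relative to the range of the group; 4.8 such groups would be flagged by chance. Vamp2 in input_TH at 3w was 592.8 CPM in mouse 187, against 558.8 to 564.0 CPM in the other 3 mice. Stx1a in SC_SYN at 5m was 166.6 CPM in mouse 193, against 192.5 to 197.7 CPM. Syn1 in SC_SYN at 5m was 313.5 CPM in mouse 191, against 415.0 to 429.7 CPM. Sv2a in input_SYN at 5m was 1576 CPM in mouse 192, against 1667 to 1671 CPM. Without mouse 187 the call of Vamp2 from 3w to 5m in input_TH was lost (adjusted p = 0.12, edgeR), and without mouse 193 that of Stx1a in SC_SYN against SC_TH at 5m (0.25), while the log2 values kept their sign at -0.14 and -0.16.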

How the results depend on the processing

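Of 77 called values of the 8 genes, 55 were called in either direction under every alternative, and 70 kept their sign in all. The 55 include Snap25 in input_SYN against input_TH at 5m, which was called in the opposite direction with the GC and length trends removed. All 16 reversals lay in input_SYN against input_TH. Scaled by library size alone, the log2 value was -0.056 for Vamp2 at 3w, -0.61 for Syn1, -0.033 for Stx1a and -0.21 for Vamp2 at 5m, and -0.55 for Snap25, -0.46 for Syn1, -0.23 for Stx1a and -0.21 for Vamp2 at 18m. With at least 10 counts in every library it was -0.27 for Syn1 at 5m and -0.28 for Snap25 at 18m. With trends on GC content and length removed it was 0.47 and 0.46 for Snap25 at 3w and 5m and -0.19 for Syn1 at 5m, and with the replicate block added to that correction 0.47, 0.47 and -0.19. Their causes were not tested. The count of calls from 3w to 5m was 4 with all 48 libraries in one fit (8 as reported), and from 5m to 18m it was 1 with the GC and length trends removed (3 as reported). The age change in SYN against TH had 2 calls with DESeq2, and 1 with library size, no filter, at least 10 counts or the replicate block (0 as reported); that of SC over input had 1 with DESeq2, no filter or at least 10 counts (0 as reported). The replicate block changed no other call in the fits over 24 libraries. With each mouse left out, the counts ranged from 6 to 8 for 5m against 3w, from 1 to 4 for 18m against 5m, from 18 to 21 for SYN against TH in SC, from 19 to 20 in input, from 24 to 26 for SC against input, from 0 to 1 for the age change in SYN against TH and from 0 to 2 for that of SC over input. Over all genes, the calls from 5m to 18m in input_TH were 1479 higher and 1329 lower, 999 and 2062 by library size, and 485 and 375 with the GC and length trends removed. In SC_SYN they were 1 and 1, and 127 and 194 with DESeq2. From 3w to 5m they were 861 and 1275 in input_TH and 573 and 573 in SC_SYN, and 1411 and 972, and 458 and 711, by library size. For SC against input in SYN at 3w they were 1293 and 1358, and 1611 and 1092 by library size. For the age change in input SYN against TH from 5m to 18m they were 180 and 252, and 422 and 200 by library size, 520 and 566 with DESeq2, 268 and 393 with the replicate block and 0 and 23 with the trends removed. Those of SC over input in TH from 3w to 5m were 187 and 246, and 104 and 353, 739 and 411, 304 and 361, and 31 and 44 under the same 4 alternatives. The lowest count of the 8 genes was 89, for Vamp1 in input_SYN, and the effect of depth on its values was not tested.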

Other observations

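Ratios of 3 pairs of related genes within a library, which do not depend on the scaling, were computed after the values of the 8 genes had been seen. The log2 ratio of Vamp1 to Vamp2 was -3.71 ± 0.181 (SD, n = 4 mice) in input_SYN at 3w, -3.14 ± 0.066 at 5m and -2.87 ± 0.253 at 18m, and in input_TH -2.89 ± 0.072, -2.42 ± 0.072 and -2.30 ± 0.063. From 3w to 5m it was higher in all 16 pairs of mice in both input fractions, by 0.47 in input_TH and 0.58 in input_SYN (exact two-sided permutation p = 0.0286 each, the smallest that 4 against 4 mice allow; 0.083 after Benjamini-Hochberg adjustment over the 32 tests computed). In SC_TH it was higher in 15 of 16 pairs (0.25, exact permutation p = 0.057, adjusted 0.13) and in SC_SYN in 12 of 16 (0.33, exact permutation p = 0.14, adjusted 0.27). From 5m to 18m the ratio was higher in all 16 pairs in SC_TH (0.16) and SC_SYN (0.35), each with exact permutation p = 0.0286 (adjusted 0.083). At that step it was higher in 14 of 16 pairs in input_TH (0.11, exact permutation p = 0.086, adjusted 0.18). In input_SYN it was higher in 15 of 16 (0.27, exact permutation p = 0.057, adjusted 0.13). For Syn1 over Syn2 and Sv2a over Sv2b the adjusted p was 0.27 or higher, except for Sv2a over Sv2b in input_TH from 5m to 18m (0.29 higher on the log2 scale, exact permutation p = 0.0286, 0.083 adjusted).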
